A study of Mus musculus with 10 samples.

Results

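Fc receptors bind the constant part of antibodies and pass the binding on to the cell. In the mouse, Fcgr1, Fcgr3 and Fcgr4 encode receptors for IgG that activate the cell, and Fcgr2b encodes the one that inhibits it. The activating receptors have no signalling tail of their own and use the FcR gamma chain, encoded by Fcer1g, which is also a subunit of the high-affinity IgE receptor of mast cells. Macrophages and neutrophils carry most of these receptors, and Fcgr2b is the only one of them on B cells. Fcgrt encodes the heavy chain of FcRn, a relative of MHC class I that protects IgG and albumin from breakdown and is known from endothelium and macrophages.

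These 6 genes were chosen by name, and every probe set annotated to exactly 1 of them was taken. That gave 11 probe sets for 6 genes, out of 34945 probe sets for 18193 genes in all. RNA came from abdominal aortas, labelled as dechorionated, with 4 WT and 6 KCASP1Tg arrays (GeneChip Mouse Genome 430 2.0), each labelled as a mouse. All were females of 16 weeks. KCASP1Tg mice carry human caspase-1 under the keratin 14 promoter, which drives it in keratinocytes, and their skin becomes inflamed. The WT mice were C57BL/6 littermates without the transgene. The methods state fewer mice than there are arrays, and all 10 arrays were used, named by the numbers in the labels. The signals are MAS5.0 intensities with each array scaled to a trimmed mean of 500.

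The aorta samples were of mixed content. The smooth muscle list of 5 genes had a mean log2 signal of 13.04 to 13.30 in WT mice and 12.95 to 13.36 in 5 KCASP1Tg mice, but 11.51 in KCASP1Tg 4. That array also held the most lymphoid RNA. Its summed signal of 5 measured B cell genes was 13312, against 577 to 1954 on the other KCASP1Tg arrays and 482 to 1068 on the WT arrays. Hepatocyte genes were high in WT 1 and WT 3, with list means of 14.74 and 13.62, and heart muscle genes in WT 4 (13.35), KCASP1Tg 1 (12.27) and KCASP1Tg 2 (11.44). Adipocyte genes were high on all arrays, with list means from 11.76 to 13.04. Erythroid genes differed by genotype, with means over 2 measured genes of 4.71 to 7.97 in WT mice and 8.58 to 11.01 in KCASP1Tg mice. The list of 5 fibroblast genes had means of 11.96 to 12.15 in WT mice and 11.04 to 12.16 in KCASP1Tg mice, below every WT array on 5 of the 6. The part of these lists in the Fc receptor results was not tested. Results below are given with and without KCASP1Tg 4 where it matters.

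Upstream sequence of 3 activating receptor genes is shown first, since Fcgr1, Fcgr3 and Fcgr4 are the members with letters of the myeloid factor PU.1 or of interferon elements close to the start site. The windows are the 250 bases before the annotated start, from RefSeq on GRCm38.p6, 5′ to 3′ along the gene. Capitals mark GAGGAA, the PU.1 core, TTCNNNGAA, the core of a gamma interferon activated site (GAS), and GAAANNGAA, the start of an interferon-stimulated response element, each searched on both strands. Fcgr1 lies at chr3:96293970-96294219 (minus strand), Fcgr4 at chr1:171018676-171018925 (plus strand) and Fcgr3 at chr1:171059395-171059644 (minus strand).
Fcgr1: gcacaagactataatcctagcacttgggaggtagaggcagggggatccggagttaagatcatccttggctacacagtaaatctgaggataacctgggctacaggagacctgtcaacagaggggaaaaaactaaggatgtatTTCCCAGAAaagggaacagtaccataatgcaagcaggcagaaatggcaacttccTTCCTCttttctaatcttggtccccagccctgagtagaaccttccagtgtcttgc
Fcgr4: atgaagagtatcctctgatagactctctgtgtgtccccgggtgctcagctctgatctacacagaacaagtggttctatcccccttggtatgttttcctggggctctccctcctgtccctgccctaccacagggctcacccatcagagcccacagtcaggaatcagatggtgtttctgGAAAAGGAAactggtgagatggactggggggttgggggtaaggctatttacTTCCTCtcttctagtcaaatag
Fcgr3: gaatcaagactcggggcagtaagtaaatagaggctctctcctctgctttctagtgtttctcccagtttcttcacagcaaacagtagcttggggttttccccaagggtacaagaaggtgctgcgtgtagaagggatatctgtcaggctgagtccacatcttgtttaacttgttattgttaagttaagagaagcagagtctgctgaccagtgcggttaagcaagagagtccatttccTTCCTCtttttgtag

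The 3 windows share the PU.1 core on the other strand (TTCCTC), from -55 to -50 in Fcgr1, -22 to -17 in Fcgr4 and -15 to -10 in Fcgr3, counted back from the start site. Fcgr1 alone of the 6 genes held the GAS letters, from -109 to -101, and Fcgr4 alone the response element letters, from -73 to -65. No match overlapped another. The windows of Fcgr2b, Fcer1g and Fcgrt held none of the 3 motifs, which says only that these letters are not in these windows. Of 32851 promoter windows of the same length, 23.25% held the PU.1 core, 7.02% the GAS letters and 7.129% the response element letters. The motifs were chosen after the sequences had been seen, and a match describes the letters and not a bound site. Fcgr2b, Fcgr4 and Fcgr3 are next to each other on chromosome 1, Fcer1g lies on the same chromosome, Fcgr1 on chromosome 3 and Fcgrt on chromosome 7.

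Each gene is represented here by its brightest probe set, by the mean over all 10 arrays, so KCASP1Tg signals enter this choice. For Fcgr2b, 1435476_a_at was brighter than the chosen 1435477_s_at in WT mice alone (means of 736 and 712). Its log2 fold change was 0.57 and its groups overlapped, so the place of Fcgr2b below is not independent of the difference. All 5 genes of the classical receptors and their signalling chain had higher signals in KCASP1Tg aorta than in WT aorta, on every array, and Fcgrt did not. With the other probe set of Fcgr1 and some others of Fcgr2b the groups overlapped. By log2 fold change Fcgr4 came first with 1.34, then Fcer1g with 1.05, Fcgr2b and Fcgr3 with 0.97 each, and Fcgr1 with 0.83. Fcgrt had -0.07. None of the 6 passed the test over all 26242 probe sets (limma, adjusted p under 0.05, called higher 0.0686% and lower 0% of all). At an unadjusted p under 0.05 the 5 genes were higher, where 4.52% of all probe sets were. The signals of the groups did not overlap for the same 5, against 1.98% of all probe sets that were higher in this sense. Adjusted exact Mann-Whitney tests called 0 of the 6. They could call none, since the smallest exact p that 4 against 6 arrays allow, 0.00952, became 0.325 after adjustment.

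**Figure D1:**
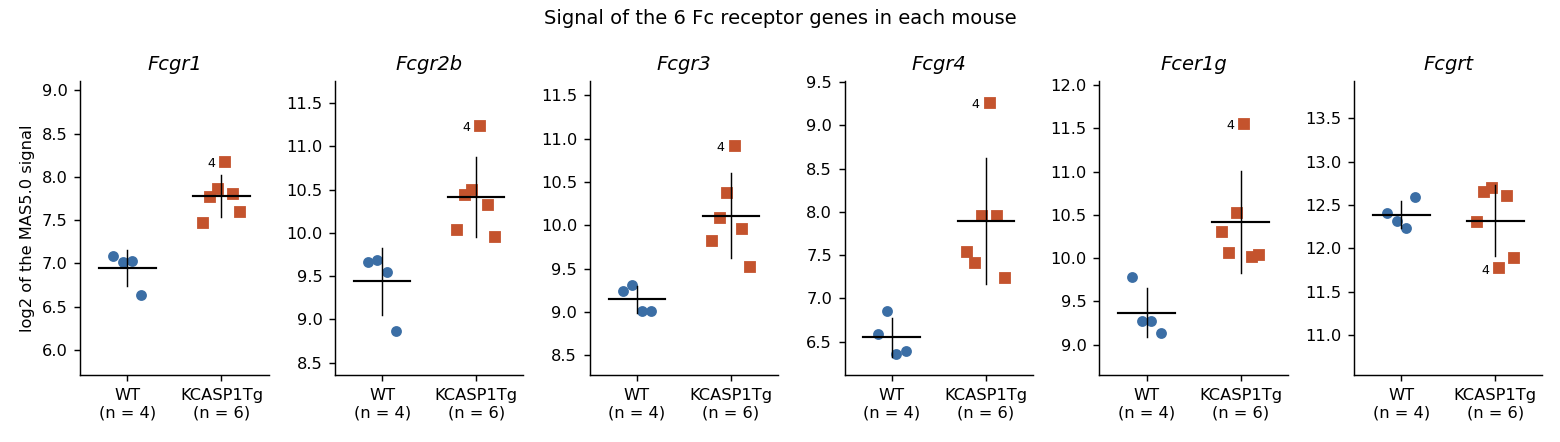
Log2 of the MAS5.0 signal of the 6 Fc receptor genes in each WT mouse (circles, n = 4) and KCASP1Tg mouse (squares, n = 6), ordered by replicate number from left to right, each gene on an axis of its own with the same span. Horizontal lines are means, vertical lines SDs, and the 4 marks KCASP1Tg 4. The squares lie above all circles for Fcgr1, Fcgr2b, Fcgr3, Fcgr4 and Fcer1g but not for Fcgrt.

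Fcgr1 encodes the high-affinity IgG receptor, which binds single IgG molecules and is known as an interferon-gamma induced gene of macrophages. Its brighter probe set (1417876_at) had signals of 136, 130, 131 and 99.8 in WT 1 to WT 4. In KCASP1Tg mice the lowest was 177, the median 221 and the highest 289. The groups were therefore apart, WT 4 was the dimmest array, and KCASP1Tg 4 was the brightest. The mean was 124 ± 16.5 (SD, n = 4) against 222 ± 38.5 (SD, n = 6), a log2 fold change of 0.83 with a standard error of 0.15 (adjusted p = 0.109 from limma). It was the smallest standard error among the 6 genes. Another probe set of Fcgr1 (1436625_at) had signals of 147, 13.1, 118 and 94.7 in WT mice and of 116 to 216 in KCASP1Tg mice, so that the groups overlapped. Its log2 fold change was 1.13 (adjusted p = 0.687 from limma), and 0.33 without WT 2.

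Fcgr3 encodes a low-affinity activating receptor for immune complexes, found on macrophages, neutrophils, mast cells and natural killer cells. Its signals were 605, 637, 518 and 517 in WT mice. They ran from 733 in KCASP1Tg 6 to 1937 in KCASP1Tg 4, with a median of 1041. Thus even the dimmest KCASP1Tg array exceeded the brightest WT array. KCASP1Tg mice exceeded WT mice by 0.97 on the log2 scale, with a standard error of 0.24 and a 95% interval of 0.44 to 1.49 (limma, adjusted p = 0.255). Without KCASP1Tg 4 it was 0.81.

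Fcgr4 encodes the mouse receptor for IgG2a and IgG2b on neutrophils and monocytes. It was dim in WT mice, at 96.4, 115, 82.1 and 84.3, and only 1 of these signals reached the minimum of 100 that was used as a filter. In KCASP1Tg mice the signals were 186, 171, 248, 614, 248 and 151. KCASP1Tg 4 stood apart, and the other 5 arrays were still above all WT arrays. This gave a log2 fold change of 1.34 with a standard error of 0.34 (limma, adjusted p = 0.284). It was 1.07 without KCASP1Tg 4 and 1.02 with a pseudocount of 50. Since Fcgr4 entered the test through its KCASP1Tg signals, its place among the tested genes is not independent of its difference. The same holds for Fcgr1, where WT 4 was just below the minimum.

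Fcer1g encodes the gamma chain, a short membrane protein with an activation motif that the receptors above need for signalling and surface expression. Its WT signals were 882, 620, 620 and 564, with WT 1 the highest. The KCASP1Tg signals were 1266, 1070, 1474, 3005, 1038 and 1051. KCASP1Tg 4 stood far above the next array, KCASP1Tg 3, and the groups were apart with or without it. By limma the difference was 1.05 on the log2 scale, with a standard error of 0.29 (adjusted p = 0.342), and 0.82 without KCASP1Tg 4.
Platelets carry the gamma chain with Gp6, the collagen receptor, so platelet transcripts are given here. Gp6 itself was too dim to be tested over all probe sets. It had signals of 36.9 to 57.6 in WT mice and 52.6 to 131 in KCASP1Tg mice, which overlapped (exact two-sided Mann-Whitney p = 0.019, unadjusted). The platelet list of 6 genes had means of 8.08 to 9.10 in WT mice, 8.82 in KCASP1Tg 4 and 10.10 to 11.01 on the other KCASP1Tg arrays. Of its 6 genes 0 were called by limma and 6 were higher at an unadjusted p under 0.05 (4.52% of all probe sets). Without KCASP1Tg 4, Gp1bb, Gp9, Treml1 and Pf4 passed (limma, adjusted p = 0.018, 0.0091, 0.0080 and 0.0086). Itga2b and Ppbp did not (adjusted p = 0.0615 and 0.0719). The share of all probe sets that passed without KCASP1Tg 4 is not given here, so how common such calls were is left unstated. With array weights all 6 passed (limma, adjusted p from 0.0072 to 0.0405), against 0.777% of all probe sets higher. Of the KCASP1Tg arrays, KCASP1Tg 4 had the highest Fcer1g signal and the lowest platelet list. The platelet lists of the other KCASP1Tg arrays were above every WT array. The part of platelets in the Fcer1g signal was not tested.

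Fcgr2b, the inhibitory receptor, recruits the phosphatase SHIP-1 through a motif in its tail and counteracts the activating receptors. Its brightest probe set (1435477_s_at) gave 809, 821, 751 and 468 in WT mice. In KCASP1Tg mice it gave 1045, 1388, 1441, 2413, 1284 and 989. The groups did not overlap, with WT 4 far below the other WT arrays. This was a log2 fold change of 0.97 with a standard error of 0.26 (limma, adjusted p = 0.308), and 0.81 without KCASP1Tg 4.
Of its 5 probe sets 4 were bright enough to be tested, and the size differed between them. The other 3 had log2 fold changes of 0.57, 0.57 and 0.61, and only 1455332_x_at kept the groups apart. The signals of 1451941_a_at were 426 to 654 in WT mice and 595 to 1142 in KCASP1Tg mice, and those of 1435476_a_at 654 to 869 and 856 to 1581, so both overlapped by the highest WT array, WT 1. The suffix s in a probe set name marks probes shared by several transcripts, and the extracellular parts of Fcgr2b and Fcgr3 are close in sequence. Of the tested probe sets of Fcgr2b, only 1435477_s_at and 1455332_x_at kept the groups apart. Whether Fcgr3 transcripts add to either was not tested. The dimmest probe set (1447622_at) had signals of at most 14.1 on all arrays and was not tested.

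Fcgrt had signals of 5446, 5074, 4810 and 6196 in WT mice and 5060, 6448, 6634, 3485, 6234 and 3802 in KCASP1Tg mice. The WT range lay inside the KCASP1Tg range. KCASP1Tg 4 and KCASP1Tg 6 were the dimmest of all arrays, and KCASP1Tg 2, 3 and 5 were above every WT array. In limma the log2 difference was -0.07, its 95% interval was -0.52 to 0.39, and its adjusted p was 0.985. An exact Mann-Whitney test, two-sided, gave p = 0.914. Its sign depended on single arrays, with 0.04 without KCASP1Tg 4. For Fcgr1, Fcgr2b, Fcgr3, Fcgr4 and Fcer1g that exact test gave 0.00952 before adjustment, the smallest that 4 against 6 arrays allow (adjusted 0.325).

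**Figure D2:**
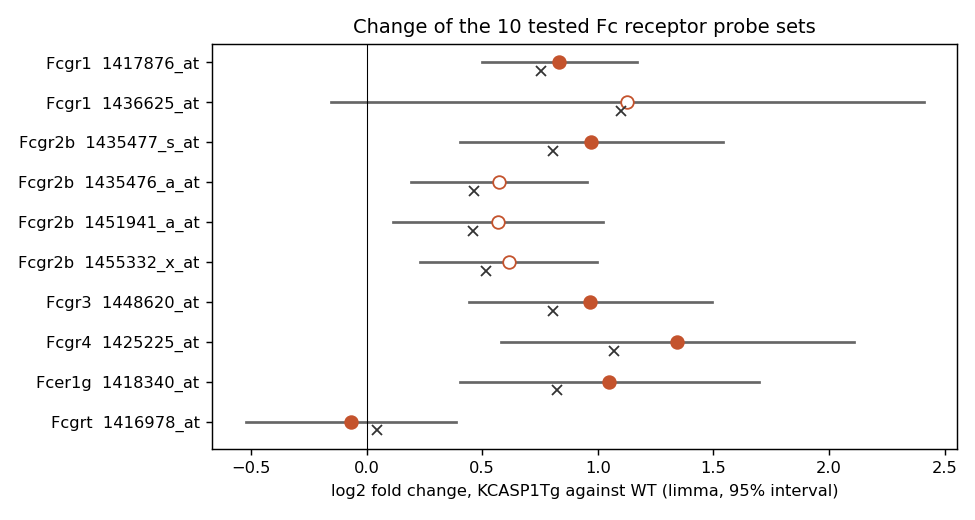
Log2 fold change of the 10 tested probe sets of the 6 genes (KCASP1Tg, n = 6, against WT, n = 4), as dots with 95% intervals from limma. Filled dots are the brightest probe set of a gene, open dots the others, and crosses the value without KCASP1Tg 4. The intervals of 8 probe sets lie above 0, and those of Fcgrt and of 1436625_at of Fcgr1 include 0.

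Without KCASP1Tg 4 the same 5 genes had groups that did not overlap, where 2.42% of all probe sets were higher in this sense. The same 5 had an unadjusted p under 0.05 (4.98% of all probe sets). The adjusted p then ranged from 0.0652 for Fcgr4 to 0.209 for Fcgr2b among them. With array weights, which give less weight to arrays that deviate, Fcgr1, Fcgr3 and Fcgr4 passed (adjusted p = 0.0217, 0.0354 and 0.0344 from limma, against 0.777% of all probe sets higher). Fcgr2b and Fcer1g did not (adjusted p = 0.0704 and 0.0726).

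Activating and inhibitory receptors were next compared within each array, as the difference of their log2 signals, which cancels what an array shares. The outcome depended on the probe set of Fcgr2b. With the brightest (1435477_s_at), Fcgr3 minus Fcgr2b ran from -0.54 to 0.14 in WT mice and from -0.43 to -0.12 in KCASP1Tg mice. For Fcgr1 minus Fcgr2b the mean difference was -2.50 in WT mice and -2.63 in KCASP1Tg mice. For Fcgr4 minus Fcgr2b it was -2.89 ± 0.32 and -2.52 ± 0.35 (SD, n = 4 and n = 6), and the 2 ranges overlapped. For Fcgr1, Fcgr3 and Fcgr4 the groups thus overlapped with this probe set, which has the largest log2 fold change of the Fcgr2b probe sets.
With the other 3 tested probe sets of Fcgr2b, the mean difference was higher in KCASP1Tg mice for Fcgr1, Fcgr3, Fcgr4 and Fcer1g. For Fcgr4 minus 1435476_a_at it was at most -2.63 in WT mice and at least -2.58 in KCASP1Tg mice, and for Fcgr4 minus 1451941_a_at at most -2.31 and at least -2.25, so the groups were apart by little. Fcgr3 minus 1451941_a_at was also apart, at most 0.278 against at least 0.295. The groups overlapped for Fcgr3 and Fcgr4 with the remaining choices of Fcgr2b probe set, and for Fcgr1 and Fcer1g with all 3.
Fcgrt minus Fcgr2b (1435477_s_at), from 2.63 to 3.73 in WT mice and from 0.53 to 2.28 in KCASP1Tg mice, did not overlap. Fcgrt itself had a log2 fold change of -0.07 and Fcgr2b 0.97, so the mean difference is mainly that of Fcgr2b. These differences are a description and were not tested, and the values for genes other than Fcgr2b rest on their brightest probe set.

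Macrophage genes are given beside these results, since macrophages carry all 6 genes. Of 12 macrophage genes 0 were called by limma, and 8 were higher at an unadjusted p under 0.05 (4.52% of all probe sets). Of these 8, Itgam needed KCASP1Tg arrays to enter the test. The groups were apart for Cd68 and Lyz2 (1.98% of all probe sets were higher in this sense). Their summed signal was 14806 to 21694 in WT mice and 19753 to 56656 in KCASP1Tg mice, with the highest in KCASP1Tg 4. The median log2 fold change of the list was 0.75, with 0.95 for Cd68 and 1.01 for Lyz2. Adgre1 (F4/80), Mertk, Mrc1, Cd163 and Csf1r had 0.23, 0.29, 0.44, 0.45 and 0.49. C1qc, C1qa, Cd14, C1qb and Itgam had 0.75, 0.76, 0.76, 0.91 and 0.95. Without KCASP1Tg 4, Adgre1 and Csf1r had 0.14 and 0.27. In these bulk samples more cells of a type and more RNA per cell cannot be told apart.
Relative to the mean log2 signal of the 12 macrophage genes on the same array, the groups overlapped for all 5 receptor and chain genes. The remaining differences in the group means were 0.17 for Fcgr1, 0.31 for Fcgr2b, 0.30 for Fcgr3, 0.38 for Fcer1g and 0.68 for Fcgr4. For Fcgr4 only KCASP1Tg 2 (-3.06) was below the highest WT array (-2.95). Fcgrt was lower in this measure in every KCASP1Tg mouse, from 0.68 to 2.30 against 2.42 to 2.75 in WT mice. Fcgrt itself had a log2 fold change of -0.07, and the list mean was 0.67 higher in KCASP1Tg mice. The mean difference of Fcgrt in this measure is thus mainly that of the list with its sign turned.
Genes of the neutrophil list, a cell type that also carries Fcgr3 and Fcgr4, differed more. The summed signal of 9 measured genes was 686 to 881 in WT mice, 6780 to 13501 on 5 KCASP1Tg arrays and 59042 in KCASP1Tg 4. Limma called 2 of the 8 tested as higher (0.0686% of all probe sets), S100a8 and S100a9, which had 21043 and 20293 in KCASP1Tg 4. The log2 fold changes of the other tested genes ran from 0.41 for Mmp9 and 1.53 for Csf3r to 4.44 for Camp. Camp was dim in WT mice, at 9.01 to 56.5. S100a9, Csf3r, Mmp8, Ngp, Ltf and Camp needed KCASP1Tg arrays to enter the test, so their place among the tested genes is not independent of their difference. The study reports higher Camp, S100a8 and S100a9 in KCASP1Tg abdominal aorta, by its arrays and by RT-PCR. It also reports them higher in cultured endothelial cells given a cytokine mixture. By electron microscopy it saw more inflammatory cells among the fat cells of KCASP1Tg mice. The part of either cell type in the signals of the Fc receptor genes was not tested.

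**Figure D3:**
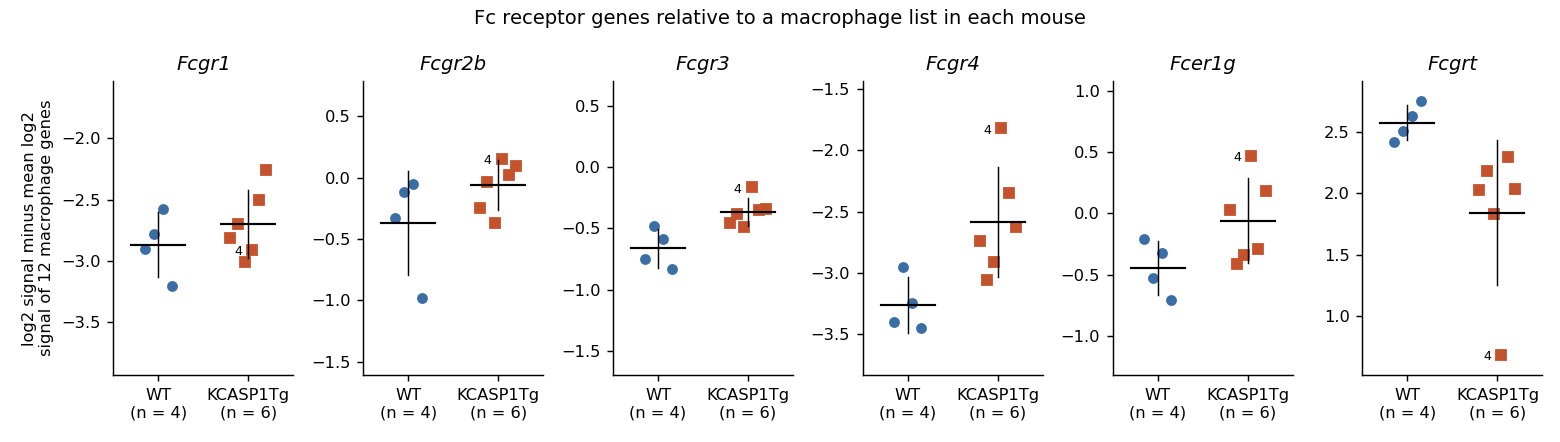
Log2 signal of each Fc receptor gene minus the mean log2 signal of 12 macrophage genes on the same array, for WT mice (circles, n = 4) and KCASP1Tg mice (squares, n = 6), with means as horizontal and SDs as vertical lines and KCASP1Tg 4 marked. The groups overlap for the first 5 genes, and for Fcgrt all KCASP1Tg mice, from 0.68 to 2.30, lie below all WT mice. The mean difference for Fcgrt is mainly that of the subtracted list (0.67 higher in KCASP1Tg mice), since Fcgrt itself had -0.07.

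The genes whose signals were most like each member were named from 12289 genes by the Pearson correlation over the 10 arrays. These values include the difference between the genotypes and the pull of KCASP1Tg 4, and are a description. For Fcer1g they were Ctss, a lysosomal protease of antigen presenting cells (0.990), Itgb2, the beta chain of leukocyte integrins (0.986), and Cybb, the phagocyte oxidase subunit (0.982). Within the 6 KCASP1Tg arrays these 3 stayed at 0.990 or above. For Fcgr4 they were Trp53inp1 (0.978), Pirb, an inhibitory receptor of myeloid and B cells (0.977), and Hpse, heparanase (0.976). For Fcgr3 they were Ms4a6c (0.980), the helicase gene Dhx15 (0.979) and the light chain segment Igkv9-120 (0.978).
For Fcgr2b they were AI662270 (0.983), Dcaf12 (0.977) and the lectin receptor gene Clec4a3 (0.966), and for Fcgr1 Trim28 (0.966), the chemokine gene Ccl9 (0.965) and Lcn2, a neutrophil granule gene (0.960). Fcgrt was most like Acad11 (0.988) and Ces1d (0.983), genes of lipid metabolism, and Emc7 (0.985), of the endoplasmic reticulum membrane. Among themselves the other 5 members had correlations from 0.890 (Fcgr1 and Fcer1g) to 0.967 (Fcgr3 and Fcgr4). Fcgrt had -0.410 to -0.177 with them, and these turned positive, from 0.158 to 0.447, without KCASP1Tg 4.

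Of 64 other genes of the Fc receptor pathway, 52 were named by a probe set with 1 symbol and 40 were bright enough to be tested. None was called in either direction by limma. At an unadjusted p under 0.05, 13 were higher (32.5%, against 4.52% of all probe sets) and 1 was lower (2.5%, against 3.42%). The groups were apart and higher for 8 of 40 (20%, against 1.98% of all probe sets). The median log2 fold change was 0.60, against 0.00 over all genes tested, and 0.34 without KCASP1Tg 4. Of the 40 genes 11 were below a signal of 100 on at least 1 WT array and needed KCASP1Tg arrays to enter the test, and 6 of the 13 and 4 of the 8 are among these. Adjusted exact Mann-Whitney tests called 0, and with so few arrays they could call none.

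The antibodies are the ligands. Ighm, the IgM heavy chain, had signals of 9791, 5673, 1526 and 1631 in WT mice and 16954 to 33602 in KCASP1Tg mice. The log2 fold change was 2.70 (limma, adjusted p = 0.118). Igha, the IgA heavy chain, had 51.4 to 1052 against 1140 to 33946, a log2 fold change of 3.99 (adjusted p = 0.284). Both were apart between the groups, and neither IgM nor IgA is a ligand of the 6 receptors. The Ighm probe set has the suffix s, which marks probes shared by several transcripts, and the Igha probe set the suffix x. Whether other immunoglobulin transcripts add to the Ighm or Igha signals was not tested. Ighg3, the IgG3 heavy chain, overlapped widely, with 111 to 3826 in WT mice and 324 to 16674 in KCASP1Tg mice, and its log2 fold change was 1.28 (adjusted p = 0.904), or 0.68 without KCASP1Tg 4. The other IgG heavy chains and the IgE heavy chain were not analysed here.

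Mast cells need Fcer1g for their IgE receptor, together with the alpha chain, Fcer1a, and the beta chain, Ms4a2. Both are given here although their values were seen first. Both were too dim to be tested over all probe sets. Fcer1a had signals of 8.56, 46.9, 37.8 and 11.8 in WT mice and 91.7, 45.0, 183, 131, 61.1 and 93.7 in KCASP1Tg mice, with KCASP1Tg 2 just below WT 2 (exact two-sided Mann-Whitney p = 0.019, unadjusted). Ms4a2 had 33.5 to 50.3 and 45.5 to 73.7 (exact p = 0.0667). The mast cell list, with Cpa3 and Kit among its 6 genes, had means of 7.43 to 8.10 in WT mice and 7.30 to 8.70 in KCASP1Tg mice, which overlapped, and 0 of its 5 tested genes had an unadjusted p under 0.05.
Of the other Fc receptors Fcer2a, the low-affinity IgE receptor of B cells, and Fcmr, the IgM receptor, were highest in KCASP1Tg 4, at 722 and 1765. On the other arrays they had 29.8 to 135 and 75.7 to 342, and their log2 fold changes were 0.32 and 0.90. Without KCASP1Tg 4 they were -0.25 and 0.33. Fcrls, an Fc receptor-like gene, had -0.18 (-0.05 without KCASP1Tg 4), and Trim21, a cytosolic antibody receptor, 0.20, with adjusted p of 0.915 and 0.78 from limma.

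FcRn pairs with a light chain and carries albumin as well as IgG. B2m, its light chain, had a log2 fold change of 0.11 with a 95% interval from -0.12 to 0.33. Alb, the gene of its other cargo albumin, had signals of 43054, 998, 25226 and 3695 in WT mice and 72.9 to 2366 in KCASP1Tg mice (log2 fold change -4.57, adjusted p = 0.288 from limma). Its highest arrays were WT 1 and WT 3. Alb is itself 1 of the 3 measured genes of the hepatocyte list. The others, Apoa1 and Ttr, were also highest in WT 1 and WT 3, at 16749 and 5541 for Apoa1 and 28504 and 14134 for Ttr. The part of liver RNA was not tested.

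Kinases and adaptors downstream of the activating receptors come next. All 15 tested genes of that group had a log2 fold change above 0, with a median of 0.52, or 0.35 without KCASP1Tg 4. An unadjusted p under 0.05 was found for 5 (33.3%, against 4.52% of all probe sets). Of these, Fgr and Btk needed KCASP1Tg arrays to enter the test, so this share is not independent of their difference. Fgr, a Src family kinase of myeloid cells, had 64.6 to 116 in WT mice and 148 to 592 in KCASP1Tg mice, which is 1.34 on the log2 scale (limma, adjusted p = 0.313). Syk, the kinase that binds the phosphorylated gamma chain, had 138 to 179 and 191 to 1405, with a log2 fold change of 1.08 (adjusted p = 0.62), and 0.66 without KCASP1Tg 4, whose signal was the highest. Btk, a kinase of B and myeloid cells, had 1.86, but WT 1 was at 8.48 against 68.4 to 88.0 on the other WT arrays. Rac2, a GTPase of blood cells, had 1.48 and Prkcd, a protein kinase C, 0.45. Fgr, Syk, Btk and Prkcd were apart between the groups, and Rac2 was not.

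The inhibitory receptor signals through another set of genes. The 7 tested genes had a median log2 fold change of 0.32, and the groups overlapped for every one. An unadjusted p under 0.05 was found for 1 (14.3%, against 4.52% of all probe sets). Inpp5d, which encodes SHIP-1, had 165 to 236 in WT mice and 221 to 708 in KCASP1Tg mice, which is 0.65 on the log2 scale (limma, adjusted p = 0.658), and 0.41 without KCASP1Tg 4. Ptpn6, which encodes SHP-1, had 1.23, and 0.72 without KCASP1Tg 4. Dok1 and Dok2, adaptors that dampen Ras signalling, had 0.65 and 0.31. The difference between the activating and inhibitory groups was not tested.

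**Figure D4:**
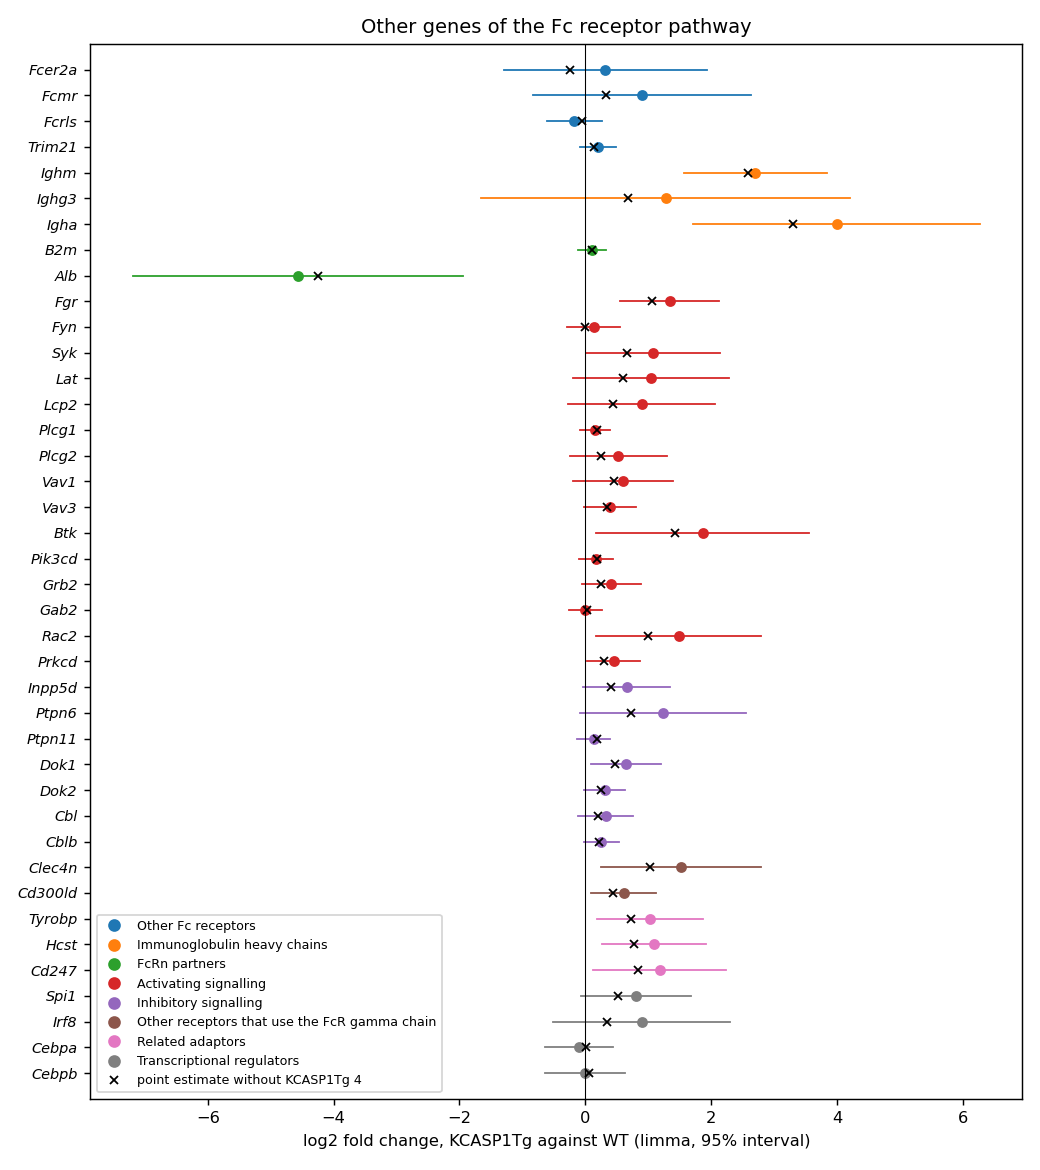
Log2 fold change (KCASP1Tg, n = 6, against WT, n = 4) of the 40 tested genes of the Fc receptor pathway, as dots with 95% intervals from limma, coloured by group. Crosses give the value without KCASP1Tg 4. Most dots lie right of 0, Alb lies far to the left, and the crosses of Syk, Rac2, Ptpn6 and Irf8 are nearer 0 than their dots.

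Of 7 measured receptors of other kinds that pair with the gamma chain, 2 were bright enough to be tested. Clec4n (Dectin-2) had 35.5 to 73.3 in WT mice and 73.0 to 815 in KCASP1Tg mice, which is 1.52 on the log2 scale (limma, adjusted p = 0.531), and Cd300ld had 0.61 (adjusted p = 0.531). Tyrobp, which encodes DAP12, had 818 to 1091 against 1242 to 5543, and Hcst, which encodes DAP10, 86.3 to 125 against 152 to 678. The groups were apart for both, with log2 fold changes of 1.03 and 1.09, and of 0.72 and 0.78 without KCASP1Tg 4. Cd247, the zeta chain of T and natural killer cells, had 1.18 and overlapped. Clec4n, Hcst and Cd247 needed KCASP1Tg arrays to enter the test, so their place among the tested genes is not independent of their difference.

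None of 4 tested regulators had an unadjusted p under 0.05. Spi1, which encodes PU.1, had 138, 128, 121 and 94.2 in WT mice and 114 to 559 in KCASP1Tg mice, which is 0.80 on the log2 scale (limma, adjusted p = 0.666), and 0.52 without KCASP1Tg 4. Irf8, an interferon regulatory factor of myeloid cells, had 0.89, and 0.34 without KCASP1Tg 4, whose signal of 2282 was far above the others. Cebpa and Cebpb, which adipocytes also express, had -0.10 and -0.01, and 0.02 and 0.06 without KCASP1Tg 4. Of 10 measured interferon-gamma response genes 8 were tested and 0 were called. Higher at an unadjusted p under 0.05 was 1, Igtp, where 4.52% of all probe sets were. Igtp, an interferon-induced GTPase, had a log2 fold change of 0.53 (limma, adjusted p = 0.496). The list mean was 8.31 to 8.85 in WT mice and 8.50 to 9.59 in KCASP1Tg mice.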

How the data were processed

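RNA from the abdominal aorta of 4 WT and 6 KCASP1Tg mice was hybridized to GeneChip Mouse Genome 430 2.0 arrays. The authors computed signal intensities with MAS5.0 (default settings) and global scaling to a trimmed mean of 500. The deposited intensities are linear. No depth applies, and the number of arrays limits the precision. Median signals ranged from 128 to 156.

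Of 45101 probe sets 64 controls were left out. Of the rest 34945 had 1 gene symbol in the platform annotation, and 932 had several. Signals below 1 were set to 1 and log2 transformed. A probe set entered the test where 4 or more arrays reached a signal of 100, which left 26242. They were fitted in limma 3.58.1 under R 4.3.3 by genotype, p-values were adjusted over all of them by Benjamini-Hochberg, and an adjusted p under 0.05 was a call. This filter stands in for detection calls, which were not used here. A two-sided exact Mann-Whitney test, named in the study's methods, was added. A gene is represented by its probe set with the highest mean signal over all 10 arrays. Named were all probe sets of the 6 genes, up to 4 pathway genes per group with the smallest p and any with groups apart, and 3 genes most like each member. The members and lists were chosen with earlier results of these data known. The steps were tested on simulated data. Intervals are 95% intervals from limma. Figures were drawn with matplotlib 3.10.9 (Python 3.11.15). The labels give no batch. Other settings were a floor of 16, a pseudocount of 50, no filter or a minimum of 200, other scaling (quantiles, medians), a variance trend, weights per array, the exact test, the replicate number as a block, averaged probe sets per gene, and each array left out. Leaving out 3 arrays together was chosen after seeing the data.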

Additional observations from a re-analysis of the deposited data

Results flagged for a closer look

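For 4 of the 22 combinations of probe set and genotype, 1 mouse lay farther from the others on the log2 scale than Dixon's 95% limit. Chance gives such a value in about 1 of 20 groups. WT 4 was lowest among the WT mice for Fcgr1 (1417876_at, gap over range 0.841) and for Fcgr2b (1435477_s_at, 0.841), with signals of 99.8 and 468. WT 4 is also the WT array with the highest heart muscle list, and the part of this in its signals was not tested. KCASP1Tg 4 was highest among the KCASP1Tg mice for Fcgr4 (0.645) and for Fcer1g (0.67), with signals of 614 and 3005. It is also the array with the most B cell, T cell and neutrophil signal and the least smooth muscle signal.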

How the results depend on the processing

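For Fcgr1, Fcgr2b, Fcgr3, Fcgr4 and Fcer1g the log2 fold change was above 0 under each of the 22 alternatives (21 for Fcgr4, which was not tested at a minimum signal of 200). It ranged from 0.61 to 0.98 for Fcgr1, 0.45 to 1.11 for Fcgr2b, 0.66 to 1.15 for Fcgr3, 0.93 to 1.49 for Fcgr4 and 0.66 to 1.24 for Fcer1g. With array weights 3 of the 6 genes passed in place of 0: Fcgr1 (0.69), Fcgr3 (0.83) and Fcgr4 (1.17). Over all alternatives adjusted p from limma or the exact test ranged from 0.0217 to 0.804 for Fcgr1, 0.0354 to 0.754 for Fcgr3 and 0.0344 to 0.821 for Fcgr4. The sign of Fcgrt turned with array weights (0.12), without WT replicate 4 (0.0028), without KCASP1Tg replicate 4 (0.043), without KCASP1Tg replicate 6 (0.018) and without KCASP1Tg 4, KCASP1Tg 3 and WT 4 together (0.047). Leaving out single arrays gave -0.14 to 0.043 for it. Among the other pathway genes 1, Ighm, passed with array weights (adjusted p = 0.0485) and without WT replicate 1 (adjusted p = 0.047), so the count with 1 array left out was 0 to 1. The cause was not tested.

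The replicate numbers do not pair the mice: deviations of same-numbered mice had correlations of 0.11, -0.31, -0.43 and -0.33, and no mouse was most like its own number. With the replicate block, where KCASP1Tg 5 and KCASP1Tg 6 were blocks of their own, the log2 fold change was 0.87 for Fcgr1 and 1.49 for Fcgr4, and 0 of the 6 genes passed.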
